A study of Mus musculus with 12 samples.

Results

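The fibroblast growth factor (FGF) receptors and ligands described here are 9 genes: the receptor tyrosine kinases Fgfr1, Fgfr2, Fgfr3 and Fgfr4, and the ligands Fgf1, Fgf2, Fgf7, Fgf10 and Fgf21. They were chosen by symbol from the 47729 genes of the deposited count tables, and each symbol matched 1 Ensembl gene. RNA-seq was run on 12 libraries from 6 mouse hepatocellular carcinoma (HCC) cell lines, all labelled BRAFV600E with p53 KO. Lines M1, M2 and M3 were labelled HCC lymph node metastasis and lines T1, T2 and T3 HCC liver tumor. Each line gave a library after 48 hours with 2 µM PLX4720, an inhibitor of mutant BRAF kinase, and a library after 48 hours with its solvent DMSO. This made 4 groups of 3 libraries: metastasis lines with PLX4720, metastasis lines with DMSO, primary lines with PLX4720, and primary lines with DMSO. The parent mice expressed BRAFV600E in hepatocytes. The deposited tables of T3, M2 and M3 carry the same number in their names. The labels do not say which animal each line came from, so p-values measure the spread between these lines.

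FGFs are secreted ligands that bind FGF receptors on the cell surface together with heparan sulfate or a klotho co-receptor. The bound receptors phosphorylate the adaptor FRS2, which passes the signal to the RAS, RAF and ERK cascade and to PI3 kinase, and Sprouty and dual-specificity phosphatase genes are induced as brakes. In the liver, hepatocytes carry FGFR4 with beta-klotho, the receptor for intestinal FGF15 that represses bile acid synthesis, and they secrete FGF21 as a fasting and stress hormone. FGF7 and FGF10 are made by mesenchymal cells and act on the epithelial splice form of FGFR2, while FGF1 binds all FGF receptors and FGF2 binds mainly the mesenchymal splice forms.

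Because each passed a test between sites or for PLX4720, 5 members are shown by the 250 bases upstream of their RefSeq start site (GRCm38.p6, 5′ to 3′ on the strand of the gene). CpG dinucleotides are in capitals. The windows are chr7:130266809-130267058 on the minus strand for Fgfr2, chr5:33721474-33721723 on the plus strand for Fgfr3, chr13:55152568-55152817 on the plus strand for Fgfr4, chr2:126034408-126034657 on the plus strand for Fgf7 and chr13:118714449-118714698 on the plus strand for Fgf10. Fgf1 and Fgf2, which passed a test as well, are not shown.
Fgfr2: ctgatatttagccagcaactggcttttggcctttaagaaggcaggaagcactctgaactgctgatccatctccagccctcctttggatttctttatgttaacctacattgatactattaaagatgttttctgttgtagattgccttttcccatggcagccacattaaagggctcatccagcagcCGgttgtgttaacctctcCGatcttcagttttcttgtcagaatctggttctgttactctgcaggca
Fgfr3: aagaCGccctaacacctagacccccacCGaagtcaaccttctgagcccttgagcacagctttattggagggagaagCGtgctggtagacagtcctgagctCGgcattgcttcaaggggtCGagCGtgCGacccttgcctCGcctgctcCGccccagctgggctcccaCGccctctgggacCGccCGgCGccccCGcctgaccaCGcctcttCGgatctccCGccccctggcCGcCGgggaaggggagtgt
Fgfr4: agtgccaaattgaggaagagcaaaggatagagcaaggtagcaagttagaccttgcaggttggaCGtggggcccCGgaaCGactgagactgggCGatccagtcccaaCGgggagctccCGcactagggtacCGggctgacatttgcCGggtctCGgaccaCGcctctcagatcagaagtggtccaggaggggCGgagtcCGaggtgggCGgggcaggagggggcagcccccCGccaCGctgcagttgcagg
Fgf7: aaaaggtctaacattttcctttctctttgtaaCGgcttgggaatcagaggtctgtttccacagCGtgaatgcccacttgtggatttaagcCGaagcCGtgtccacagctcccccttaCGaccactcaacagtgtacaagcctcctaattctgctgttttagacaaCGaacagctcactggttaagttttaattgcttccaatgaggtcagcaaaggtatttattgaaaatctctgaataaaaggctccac
Fgf10: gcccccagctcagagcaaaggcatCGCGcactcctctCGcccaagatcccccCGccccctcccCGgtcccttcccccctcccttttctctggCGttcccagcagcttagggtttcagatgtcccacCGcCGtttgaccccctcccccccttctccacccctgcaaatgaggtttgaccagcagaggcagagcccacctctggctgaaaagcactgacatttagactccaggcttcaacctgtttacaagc
The Fgfr3 window held 19 CpG, the Fgfr4 window 15, the Fgf10 window 8, the Fgf7 window 6 and the Fgfr2 window 2, beside a median of 6 over 32851 RefSeq windows of the same length. Their GC content was 66.8% for Fgfr3, 64% for Fgfr4, 61.2% for Fgf10, 44% for Fgfr2 and 43.6% for Fgf7, beside a median of 52.4%. RefSeq lists 2 windows for Fgfr3, and the window nearest the gene start in the count tables was used. For Fgfr2 no reference transcript searched held the bases just downstream of the start site, so its window may not be the promoter in use. The Fgf10 window lies inside the gene as counted, which starts at chr13:118669791. Both strands were searched for 5 short motifs. The only match in the 5 windows was an ETS core, CCGGAA, in Fgfr4 at position -178 from the start site, and 12.0% of all windows hold these letters on either strand. Fgfr4 as counted starts further upstream than in RefSeq, at chr13:55152640, and the match does not lie upstream of that start. The AP-1 motif TGANTCA occurs in 6.75% of all windows. The TEAD motif GGAATG occurs in 12.6% of them. The TATA box letters TATAAA occur in 12.4% and the cyclic AMP response element TGACGTCA in 1.55%.

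Libraries held 31992512 to 39288748 fragments assigned to genes. The share from mitochondrial genes was 3.67% for PLX4720-treated T3, and every other library lay between 0.189% and 0.712%. The labels name HCC at both sites, but the marker genes differed. The summed level of 10 hepatocyte markers was 1.09 to 4.57 CPM, fragments scaled to the size of the library, in metastasis lines with PLX4720 and 0.238 to 1.95 CPM in metastasis lines with DMSO, against 944 to 1893 CPM in primary lines with PLX4720 and 793 to 1519 CPM in primary lines with DMSO. Apob and Hnf4a made up most of the sum in primary lines, at 803 to 1560 and 121 to 266 CPM with PLX4720 and 627 to 1205 and 141 to 251 CPM with DMSO. Alb ran from 0.136 to 15.8 CPM in primary lines with PLX4720 and 0.132 to 7.69 CPM with DMSO, and Ahsg and Cyp3a11 were at or near 0 in every library. Alb, Ttr and Serpina1a were at 0 in all metastasis libraries. The 7 epithelial markers summed to 21.7 to 43.0 CPM in metastasis libraries, against 5501 to 8181 CPM in primary libraries. Sox9, which held the most fragments of the 7 in each metastasis group, overlapped between sites. It had 10.6 to 28.7 CPM in metastasis lines with PLX4720 and 19.5 to 28.3 CPM with DMSO, against 5.26 to 26.9 and 9.92 to 36.7 CPM in primary lines. The 11 fibroblast and stellate cell markers summed to 4804 to 11868 CPM in metastasis lines with PLX4720 and 2218 to 5343 CPM in metastasis lines with DMSO, against 2.26 to 32.4 CPM in primary lines of either treatment. In each metastasis group 8 of these 11 exceeded 30 fragments, and Des and Lrat were at 0. In primary lines 4 did with PLX4720 and 6 with DMSO. Reln went the other way, at no more than 0.119 CPM in metastasis libraries and up to 4.37 CPM in primary ones. The part of these marker differences in the FGF results below was not tested.

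Each site had its own mix of receptors and ligands. Metastasis lines carried mainly Fgfr1 with Fgf7 and Fgf10, and primary lines carried mainly Fgfr4 and Fgfr3 with Fgf1, the shares being taken over the members alone. Fgf18, a ligand outside the 9 genes that is described further on, was about as high as Fgf1 in primary lines per length, at a mean of 22.2 TPM with PLX4720 and 14.7 TPM with DMSO. In the metastasis lines Fgfr1 made up 87.8% ± 10.1 of the summed receptor level with PLX4720 and 94.1% ± 5.22 with DMSO, against 7.44% ± 8.28 and 15.8% ± 14.6 in primary lines with PLX4720 and with DMSO (mean ± SD, n = 3 lines, on the per-length TPM scale). Fgfr3 and Fgfr4 had the largest mean shares in the primary lines: Fgfr3 42.5% ± 11.1 with PLX4720 and 19.2% ± 7.56 with DMSO, and Fgfr4 37.9% ± 17.1 with PLX4720 and 56.3% ± 27.2 with DMSO. With PLX4720 the means of Fgfr3 and Fgfr4 differed by less than their SD. Fgfr2 had a mean share of 11.9% ± 10.1 in metastasis lines with PLX4720 and 5.61% ± 5.32 with DMSO, where it was second to Fgfr1, and of 12.2% ± 12.8 in primary lines with PLX4720 and 8.69% ± 10.9 with DMSO. The primary lines did not share a single order of receptors. With DMSO, Fgfr4 led in T1 at 83.8% and T2 at 55.5%, while in T3 Fgfr4 at 29.5% and Fgfr1 at 29.1% were nearly equal. With PLX4720, Fgfr3 led in T2 at 55.1% and T3 at 37.6%, while Fgfr4 still led in T1 at 54.5%. The order in T1 and T3 depended on the correction for length. By CPM shares, Fgfr3 at 44.9% was above Fgfr4 at 35.0% in T1 with PLX4720. In T3 with DMSO Fgfr1 then led at 33.5%, and Fgfr4 was lowest at 14.9%. The summed receptor level was 75.9, 53.2 and 34.4 TPM in M1, M2 and M3 with PLX4720 and 43.5, 48.3 and 42.9 TPM with DMSO. For T1, T2 and T3 the sum was 67.3, 44.0 and 27.8 TPM with PLX4720 and 37.6, 19.2 and 14.7 TPM with DMSO. It was higher with PLX4720 than with DMSO in 5 of 6 lines, M3 being the exception.

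**Figure D1:**
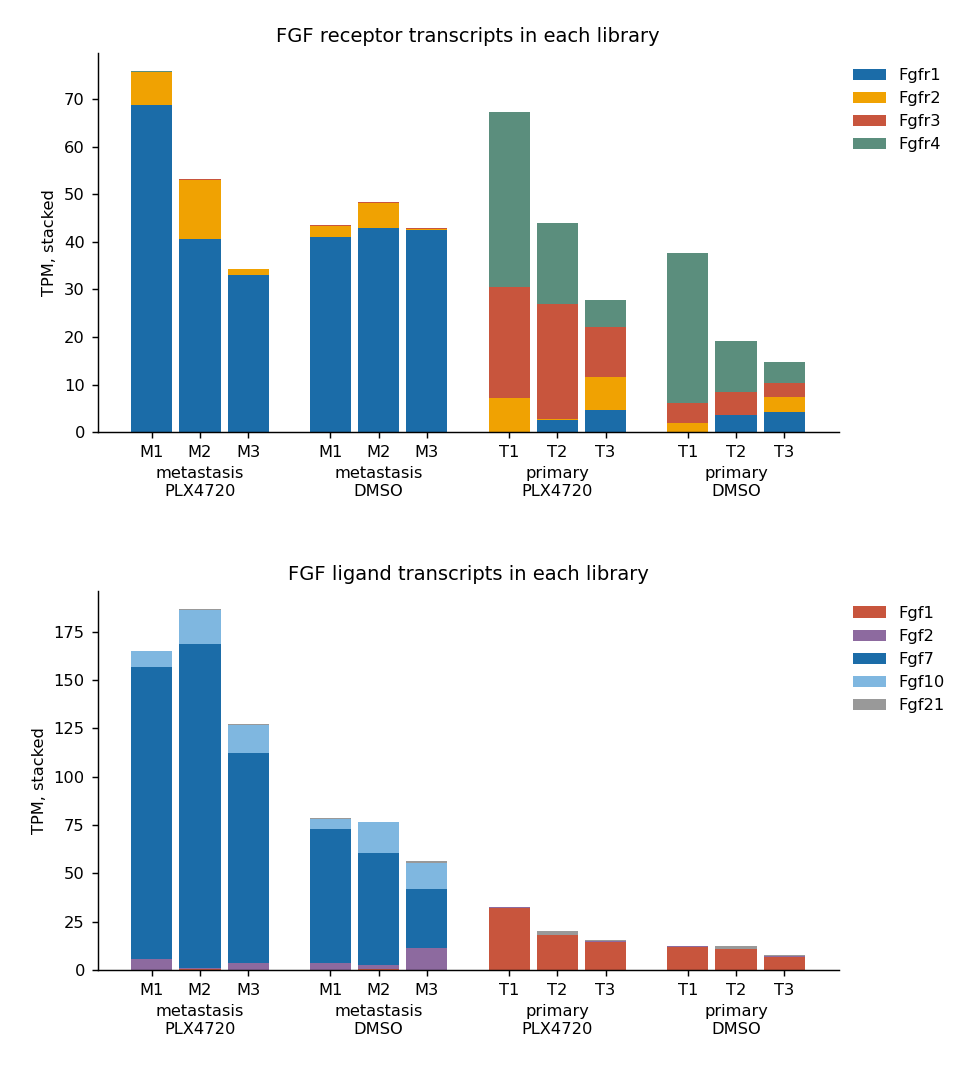
Stacked TPM of the 4 FGF receptors (top) and the 5 FGF ligands (bottom) in each of the 12 libraries, with lines on the horizontal axis and TPM, a per-length level, on the vertical axis. Fgfr1 fills most of each metastasis bar and Fgfr3 and Fgfr4 much of the primary bars, and Fgf7 is the tallest ligand segment in metastasis bars where Fgf1 is in primary bars.

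Among the 5 ligands, Fgf7 made up 88.8% ± 3.06 of the summed ligand TPM in metastasis lines with PLX4720 and 73.1% ± 17.0 with DMSO, against 0.440% ± 0.258 and 0.521% ± 0.344 in primary lines with PLX4720 and with DMSO. Fgf1 made up 94.1% ± 4.54 in primary lines with PLX4720 and 91.7% ± 4.42 with DMSO. Fgf10 was the second ligand of the metastasis lines, with 8.63% ± 3.36 under PLX4720 and 17.1% ± 9.14 under DMSO. In M3 with DMSO Fgf10 at 23.7% and Fgf2 at 19.5% were close. The summed ligand level was 165, 187 and 127 TPM in M1, M2 and M3 with PLX4720, against 78.6, 76.7 and 56.2 TPM with DMSO. For T1, T2 and T3 the sum was 32.8, 20.2 and 15.4 TPM with PLX4720, against 12.6, 12.4 and 7.57 TPM with DMSO. It was thus higher with PLX4720 in each of the 6 lines.

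**Figure D2:**
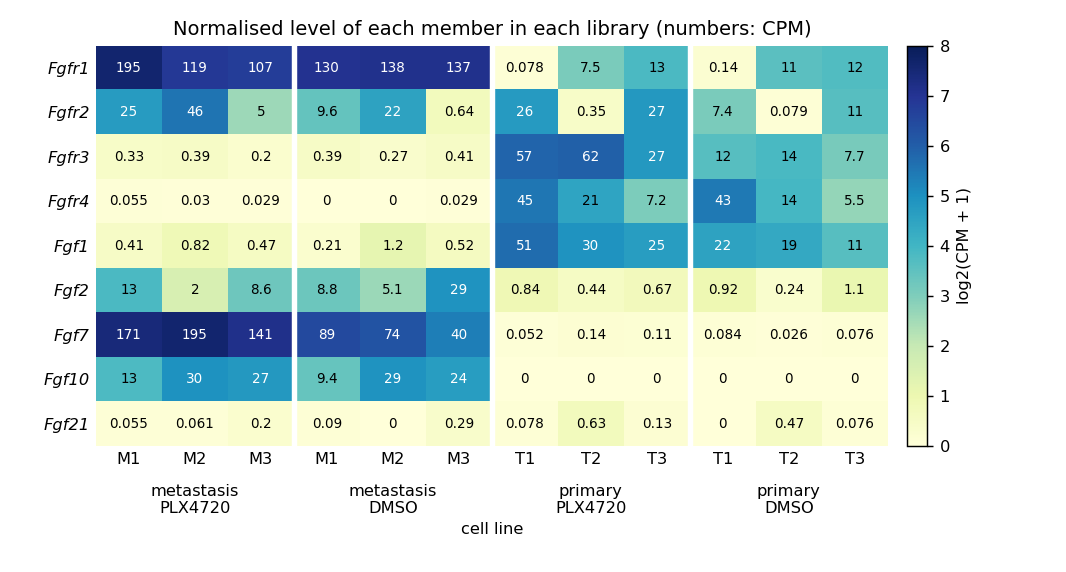
Normalised level of each of the 9 members (rows) in each library (columns), as log2(CPM + 1) in colour and CPM in numbers; CPM is not corrected for gene length, so levels compare along a row. Fgf10 is at 0 CPM in all 6 primary libraries, and Fgfr2 varies within both sites, with its lowest level in T2.

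Site was compared first, with 3 metastasis lines against 3 primary lines under each treatment (edgeR quasi-likelihood test, Benjamini-Hochberg adjusted over all genes tested). Under DMSO 6 of the 8 members tested passed an adjusted p of 0.05, 3 higher and 3 lower in metastasis lines, where 12.1% of all 14992 genes tested did, 4.64% higher and 7.49% lower. Under PLX4720 it was again 3 higher and 3 lower of 8, where 13.5% of 15276 genes did, 5.62% higher and 7.88% lower. For 7 of the 8 the ranges of the sites did not overlap under either treatment, as for 33.2% of all genes under DMSO and 34.7% under PLX4720. Fgf7, Fgf10 and Fgfr4 passed the filter on low counts only through the lines of 1 site, and Fgf21 did not pass it. Under DMSO the low site could not have passed the filter alone for Fgfr1 (5 fragments in T1), Fgfr3 (9 in M2), Fgf1 (7 in M1) and Fgf2 (9 in T2). The filter thus took part in the site counts of members, which are given as a description. Within a bulk library, fewer cells of a type and less RNA per cell cannot be told apart.

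Fgfr1 (ENSMUSG00000031565, chr8:25513654-25575714, plus strand of GRCm38) encodes a receptor found widely on mesenchymal cells. It had 195, 119 and 107 CPM in M1, M2 and M3 with PLX4720 and 130, 138 and 137 CPM with DMSO. The primary lines T1, T2 and T3 had 0.0784, 7.46 and 13.3 CPM with PLX4720 and 0.139, 10.8 and 12.4 CPM with DMSO. All metastasis libraries were above all primary libraries, and T1 stood far below T2 and T3. The log2 difference of metastasis to primary lines was 4.12 ± 1.23 (SE) under DMSO and 4.35 ± 1.33 under PLX4720, and neither passed the test (edgeR adjusted p = 0.0835 and 0.0837). Without T1 the differences were 3.56 and 3.74 and both passed (edgeR adjusted p = 0.00414 and 0.0120).

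Fgfr4 (ENSMUSG00000005320, chr13:55152640-55168759, plus strand), the receptor of the bile acid feedback in hepatocytes, had 4 fragments over the 3 metastasis libraries with PLX4720 and 1 over those with DMSO, against 2770 and 2306 fragments in primary lines with PLX4720 and with DMSO. Per line it stood at 44.8, 21.4 and 7.25 CPM in T1, T2 and T3 with PLX4720 and at 43.0, 14.3 and 5.49 CPM with DMSO. The primary lines kept the same order under both treatments, T1 above T2 above T3. Fgfr4 was lower in metastasis lines under DMSO (edgeR adjusted p = 0.00573) and under PLX4720 (edgeR adjusted p = 0.00304). Under PLX4720 the rate in metastasis lines was exceeded by that in primary lines 640.2 times, with an exact 95% interval of 249.8 to 2351 that covers counting error only.

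Fgfr3 (ENSMUSG00000054252, chr5:33721674-33737068, plus strand), a receptor known for restraining bone growth and as a bladder cancer oncogene, had 0.329, 0.394 and 0.204 CPM in M1, M2 and M3 with PLX4720 and 0.388, 0.268 and 0.407 CPM with DMSO. In T1, T2 and T3 it had 57.5, 61.6 and 27.0 CPM with PLX4720 and 11.5, 13.6 and 7.68 CPM with DMSO. Metastasis libraries held 7 to 14 fragments each, all below the lowest primary library. Fgfr3 was lower in metastasis lines by a log2 difference of -7.26 ± 0.52 under PLX4720 and -4.92 ± 0.45 under DMSO (edgeR adjusted p = 0.00102 and 0.00222). The gene shares 998 exon bases, 13.94% of its exon length, with the opposite-strand gene G630022F23Rik, which held at most 26 fragments in any library. The counting did not use strand, and fragments in shared bases go to neither gene by default. The count of G630022F23Rik thus does not show how many fragments were left out of Fgfr3.

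Fgfr2 (ENSMUSG00000030849, chr7:130162451-133123350, minus strand), the receptor for Fgf7 and Fgf10 in its epithelial form, varied between lines more than between sites. It had 25.0, 45.8 and 5.00 CPM in M1, M2 and M3 with PLX4720 and 9.61, 21.7 and 0.639 CPM with DMSO. In T1, T2 and T3 it had 25.7, 0.354 and 26.6 CPM with PLX4720 and 7.44, 0.0790 and 11.4 CPM with DMSO. The sites overlapped, with M3 the low line of one site and T2 of the other. The log2 difference between sites was 0.55 ± 1.32 under PLX4720 and 0.77 ± 1.56 under DMSO and did not pass the test (edgeR adjusted p = 0.836 and 0.813). The gene model in the tables spans 2.96 Mb, against 104 kb in RefSeq, and its 314 exon bases outside the RefSeq span, 3.04% of the exon length, are shared with Ctbp2.

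PLX4720 against DMSO was compared next, within each line. Over all 6 lines 2 of the 8 members tested rose and none fell, where 27.2% of all 16555 genes changed, 14.5% up and 12.7% down. In the metastasis lines 2 rose and none fell, where 20.4% of genes changed, 12% up and 8.36% down. In the primary lines 3 rose and none fell, where 8.23% of genes changed, 4.46% up and 3.77% down. The members that rose were Fgfr2 at both sites, Fgfr3 and Fgf1 in the primary lines, and Fgf7 in the metastasis lines. These calls rest on the pairing of libraries by line. Without the line in the fit no member passed, and for Fgfr2 over all 6 lines the change was then 1.36 (edgeR adjusted p = 0.795).

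**Figure D3:**
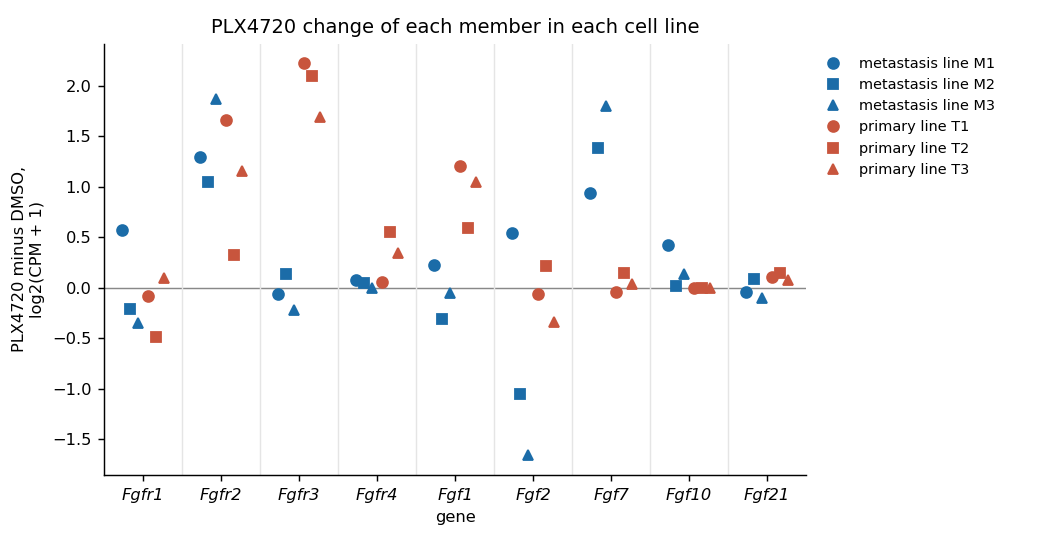
Change of each member in each line, as log2(CPM + 1) with PLX4720 minus log2(CPM + 1) with DMSO, with blue symbols for metastasis lines and red symbols for primary lines. Fgfr2 lies above 0 in all 6 lines, Fgfr3 and Fgf1 in the 3 primary lines, and Fgf7 clearly above 0 in the 3 metastasis lines; changes of genes near 0 CPM are compressed on this scale.

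Fgfr2 was higher with PLX4720 in all 6 lines. The CPM with PLX4720 were 2.60, 2.11 and 7.83 times those with DMSO in M1, M2 and M3, and 3.46 and 2.33 times in T1 and T3. T2 held 13 fragments with PLX4720 and 3 with DMSO. The fitted log2 change was 1.56 ± 0.21 over all 6 lines (2.96-fold, edgeR adjusted p = 0.0014), 1.59 ± 0.28 in metastasis lines and 1.54 ± 0.32 in primary lines (edgeR adjusted p = 0.00518 and 0.0254). The change did not differ detectably between sites, with a difference of 0.06 ± 0.43 (edgeR adjusted p = 0.987). The primary call was lost when any of T1, T2 or T3 was left out (edgeR adjusted p = 0.239, 0.0807 and 0.0791), while the log2 change stayed between 1.35 and 1.85.

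Fgfr3 rose in the primary lines, to 4.99, 4.53 and 3.51 times the DMSO level in T1, T2 and T3, so that all 3 libraries with PLX4720 were above all 3 with DMSO. The fitted log2 change was 2.11 ± 0.16 (edgeR adjusted p = 0.000966), and it passed with each line left out in turn. T3 with PLX4720 is the library with 3.67% mitochondrial fragments, and its ratio was the lowest of the 3. In metastasis lines, at 32 fragments over 3 libraries with PLX4720 and 36 with DMSO, the change was -0.21 ± 0.34 (edgeR adjusted p = 0.719). The change differed between sites by -2.31 ± 0.38 (metastasis minus primary, edgeR adjusted p = 0.0181), the single member of 8 to pass, where 2.94% of all genes did. This difference lost its call without T1, T2 or M3 (edgeR adjusted p = 0.0509, 0.0593 and 0.0611). The value over all 6 lines, 0.95 ± 0.19 (edgeR adjusted p = 0.00799), averages the 2 sites.

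Fgfr4 in the primary lines had ratios of PLX4720 to DMSO of 1.04, 1.497 and 1.32 in T1, T2 and T3, and its change of 0.34 ± 0.16 (log2) did not pass the test (edgeR adjusted p = 0.230). Fgfr1 was higher with PLX4720 in M1 and T3 and lower in M2, M3 and T2, with no common direction. Its log2 change was 0.00 ± 0.18 in metastasis lines and -0.22 ± 0.23 in primary lines (edgeR adjusted p = 1 and 0.594). Per length, Fgfr3 stood at 23.3, 24.3 and 10.5 TPM in T1, T2 and T3 with PLX4720, against 4.17, 4.99 and 3.00 TPM with DMSO. This was the largest difference among the 4 receptors in each primary line.

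Fgf7 (ENSMUSG00000027208, chr2:126034658-126091185, plus strand), also named keratinocyte growth factor, was the leading ligand of the metastasis lines. It had 171, 195 and 141 CPM in M1, M2 and M3 with PLX4720 and 88.6, 74.4 and 39.8 CPM with DMSO. In the primary lines it held 11 fragments in all with PLX4720 and 7 with DMSO. Each metastasis line was higher with PLX4720, 1.93, 2.63 and 3.55 times in M1, M2 and M3, and the treatments did not overlap. The fitted log2 change was 1.39 ± 0.16 (2.62-fold, edgeR adjusted p = 0.000659), and it passed with each line left out in turn. Against primary lines Fgf7 was higher under PLX4720 and under DMSO (edgeR adjusted p = 0.00013 and 0.00092). The ratio of summed rates was 1726 under PLX4720 and 1093 under DMSO, with exact 95% intervals of 964 to 3458 and 530.1 to 2719 for counting error only. The fibroblast and stellate marker sum was also higher with PLX4720 than with DMSO in these lines, and its part in the Fgf7 change was not tested.

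Fgf10 (ENSMUSG00000021732, chr13:118669791-118792115, plus strand), the other mesenchymal ligand of epithelial FGFR2, had 13.0, 29.7 and 26.7 CPM in M1, M2 and M3 with PLX4720 and 9.43, 29.2 and 24.3 CPM with DMSO. No fragment was counted in any of the 6 primary libraries, where 3 fragments per library would correspond to 0.0764 to 0.0862 CPM. Against 3 fragments over the primary group it was at least 855-fold higher in metastasis lines under PLX4720 and at least 796-fold higher under DMSO (edgeR adjusted p = 0.00355 and 0.0052). Unlike Fgf7 it did not pass the PLX4720 test in these lines, the change being 0.20 ± 0.15 in log2 (edgeR adjusted p = 0.385); the 2 changes were not tested against each other.

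Fgf2 (ENSMUSG00000037225, chr3:37348346-37410108, plus strand), basic FGF, had 13.3, 1.97 and 8.61 CPM in M1, M2 and M3 with PLX4720 and 8.83, 5.15 and 29.4 CPM with DMSO. The primary lines T1, T2 and T3 had 0.836, 0.436 and 0.669 CPM with PLX4720 and 0.919, 0.237 and 1.11 CPM with DMSO. All metastasis libraries were above all primary libraries. The log2 difference was 3.63 ± 0.77 under PLX4720 and 4.26 ± 0.92 under DMSO (edgeR adjusted p = 0.0268 and 0.0302), and both calls were lost when T1, T2, T3, M1 or M3 was left out (edgeR adjusted p between 0.0544 and 0.0977). With PLX4720 Fgf2 was 1.51 times the DMSO level in M1 but 0.383 and 0.293 times in M2 and M3. The metastasis lines thus split, and the log2 change of -0.85 ± 0.42 did not pass (edgeR adjusted p = 0.199). Without M1 it was -1.61 and passed (edgeR adjusted p = 0.0023). The gene shares 640 exon bases, 9.44% of its length, with Nudt6 on the opposite strand, which held 32 to 166 fragments per library. As for Fgfr3, that count does not show how many fragments in shared bases were left out.

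Fgf1 (ENSMUSG00000036585, chr18:38838673-38929404, minus strand), acidic FGF, was the highest of the 5 ligand members in the primary lines, with 51.4, 29.6 and 24.5 CPM in T1, T2 and T3 with PLX4720 and 21.8, 19.3 and 11.3 CPM with DMSO. In M1, M2 and M3 it had 0.411, 0.819 and 0.465 CPM with PLX4720 and 0.209, 1.25 and 0.523 CPM with DMSO. It was lower in metastasis lines by a log2 difference of -5.92 ± 0.52 under PLX4720 and -4.70 ± 0.74 under DMSO (edgeR adjusted p = 0.00178 and 0.0113). With PLX4720 it rose 2.36, 1.53 and 2.17 times in T1, T2 and T3, and the treatments did not overlap. The fitted log2 change in primary lines was 0.99 ± 0.18 (edgeR adjusted p = 0.0180). This call was lost without T1, T2 or T3 (edgeR adjusted p = 0.178, 0.0509 and 0.0847). In metastasis lines the change was -0.14 ± 0.32 (edgeR adjusted p = 0.810), and the difference between sites of -1.13 ± 0.37 did not pass (edgeR adjusted p = 0.173), though it did without M1, at -1.43 (edgeR adjusted p = 0.0476).

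Fgf21 (ENSMUSG00000030827, chr7:45613907-45615490, minus strand), the endocrine hormone of fasting and stress, was not tested because its counts were too low. It had 2, 2 and 7 fragments in M1, M2 and M3 with PLX4720 and 3, 0 and 10 with DMSO. In T1, T2 and T3 it had 3, 23 and 5 fragments with PLX4720 and 0, 18 and 3 with DMSO. The highest level was in T2, at 0.626 CPM with PLX4720 and 0.474 CPM with DMSO.

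Of 13 further ligand genes, 1 passed the filter on low counts, Fgf18, a ligand known from skeletal and lung development. Per length it stood as high as Fgf1 in the primary lines. Fgf18 had 24.4, 29.8 and 12.4 TPM in T1, T2 and T3 with PLX4720 and 16.9, 20.5 and 6.71 TPM with DMSO. Fgf1 had 32.1, 18.0 and 14.6 TPM with PLX4720 and 12.2, 10.9 and 6.82 TPM with DMSO. Fgf18 was thus the higher of the pair in T2 with either treatment and in T1 with DMSO. It had 8 fragments in metastasis lines with PLX4720 and 8 with DMSO, against 1042 and 743 in primary lines with PLX4720 and with DMSO. It passed the filter through the primary lines alone. Its log2 difference to primary lines was -6.33 ± 1.20 under DMSO (edgeR adjusted p = 0.020), and in the primary lines its PLX4720 change of 0.56 ± 0.23 did not pass (edgeR adjusted p = 0.171). Fgf15, the mouse ligand of FGFR4, was found mainly in T3, with 90 fragments under PLX4720 and 20 under DMSO.

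Beta-klotho and other FGF co-receptors and binding proteins formed a list of 12 genes. The median log2 change of the 11 tested over all 6 lines was 0.47, beside 0.03 over all genes. Of these 11 genes 3 rose and none fell, where 14.5% of all genes rose and 12.7% fell. They were Ncam1 (0.91 ± 0.13, edgeR adjusted p = 0.0016), an adhesion molecule that can bind FGF receptors, and Flrt1 and Flrt3, membrane proteins that interact with them. Flrt3 changed by 0.47 ± 0.12 (edgeR adjusted p = 0.022), with 0.77 ± 0.18 in metastasis lines and 0.17 ± 0.17 in primary lines, and Flrt1 by 1.27 ± 0.31 in primary lines (edgeR adjusted p = 0.0428). Klb, encoding beta-klotho, rose in primary lines by 1.62 ± 0.27 (edgeR adjusted p = 0.014) and had 469, 12 and 229 fragments in T1, T2 and T3 with PLX4720 and 161, 8 and 55 with DMSO. It held at most 7 fragments in any metastasis library, and it is named here after its values were seen. Fgfrl1, a receptor without a kinase domain, changed by 0.23 ± 0.11 over all 6 lines and did not pass (edgeR adjusted p = 0.164). Against primary lines under DMSO 2 of 9 tested were lower and none higher, where 7.49% of all genes were lower and 4.64% higher. Flrt3 was lower by -2.77 ± 0.36 (edgeR adjusted p = 0.0065). Fgfbp1, a carrier that releases FGFs from the matrix, had 2 fragments in metastasis lines against 551 in primary lines (edgeR adjusted p = 0.020). Of the 551, T1, T2 and T3 held 51, 43 and 457. Fgfbp1 passed the filter through the primary lines alone.

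Genes of heparan sulfate, the co-factor for binding of paracrine FGFs, had a median log2 change of 0.26 over all 6 lines. Of 22 tested 8 rose and none fell, where 14.5% of all genes rose and 12.7% fell. They included the perlecan core gene Hspg2 (0.82 ± 0.11), the chain polymerase Ext2 (0.38 ± 0.08), the glypican Gpc4 (1.05 ± 0.22) and the sulfotransferase Ndst1 (0.32 ± 0.07), with edgeR adjusted p of 0.0013, 0.0073, 0.0091 and 0.012. Ndst1 averages unlike sites, with -0.04 ± 0.10 in metastasis lines and 0.68 ± 0.10 in primary lines, a difference of -0.71 ± 0.14 (edgeR adjusted p = 0.036). For Gpc4 the primary lines other than T1 held at most 1 fragment per library, and T1 held 193 with PLX4720 and 88 with DMSO. Sulf2, an extracellular sulfatase of these chains that was named after its values were seen, rose in metastasis lines (2.33 ± 0.48, edgeR adjusted p = 0.010), and its difference between sites did not pass (edgeR adjusted p = 0.065). Between sites under DMSO 1 of 22 was higher and 2 were lower in metastasis lines, where 4.64% of all genes were higher and 7.49% lower. The syndecan Sdc2 had 321 ± 51.8 CPM in metastasis lines and 17.8 ± 7.29 CPM in primary lines, a log2 difference of 4.19 ± 0.39 (SD, n = 3 for levels, edgeR adjusted p = 0.0023). The 3-O-sulfotransferase Hs3st1 had 0.217 ± 0.183 CPM in metastasis lines and 79.2 ± 17.5 CPM in primary lines (SD, n = 3, edgeR adjusted p = 0.0017). The glypican Gpc2 held 0 fragments in metastasis lines and 54 in primary lines. Both genes passed the filter through the primary lines alone.

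Of 16 receptor adaptors 2 rose over all 6 lines and none fell, where 14.5% of all genes rose, with a median log2 change of 0.13. Gab1, a docking protein that links receptors to PI3 kinase, rose by 1.12 ± 0.14 (edgeR adjusted p = 0.0011) and Frs2, the main FGF receptor substrate, by 0.34 ± 0.09 (edgeR adjusted p = 0.026), its value being 0.57 ± 0.13 in metastasis lines and 0.10 ± 0.13 in primary lines. Gab1 rose at both sites, by 1.33 ± 0.20 in metastasis lines and 0.90 ± 0.20 in primary lines (edgeR adjusted p = 0.0024 and 0.032). Gab2, its paralogue, was lower in metastasis lines under DMSO by -1.60 ± 0.31 (edgeR adjusted p = 0.022), the single adaptor of 16 to pass there, where 12.1% of all genes did.

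Most feedback and target genes of FGF and ERK signalling fell with PLX4720. Over all 6 lines 10 of 16 fell and 2 rose, where 12.7% of all genes fell and 14.5% rose. The median log2 change of the list was -0.90. The ETS factor genes Etv4 and Etv5 changed by -2.15 ± 0.16 and -1.89 ± 0.23, the ERK phosphatase gene Dusp6 by -1.43 ± 0.15 and the RAS pathway inhibitor gene Spred1 by -0.85 ± 0.09 (edgeR adjusted p = 0.00012, 0.00079, 0.0004 and 0.0004). The 2 that rose, named for that after their values were seen, were Spry1, a Sprouty feedback inhibitor, at 0.55 ± 0.07, and Phldb2, a cell cortex protein, at 0.90 ± 0.11 (edgeR adjusted p = 0.00114 and 0.00103). In metastasis lines 9 fell and 3 rose, where 8.36% of all genes fell and 12% rose. In primary lines 5 fell and none rose, where 3.77% fell and 4.46% rose. The third to rise in metastasis lines was Il17rd, an FGF receptor inhibitor that stands on the co-receptor list as well, at 1.54 ± 0.37 (edgeR adjusted p = 0.020). Il17rd held 321, 233 and 10 fragments in M1, M2 and M3 with PLX4720 and 146, 40 and 8 with DMSO. Between sites under DMSO Etv1, an ETS factor gene, had 2736 fragments in metastasis lines and 8 in primary lines (edgeR adjusted p = 0.0013), and Dusp6 was lower in metastasis lines by -0.71 ± 0.17 (edgeR adjusted p = 0.040). Etv1 passed the filter through the metastasis lines alone.

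**Figure D4:**
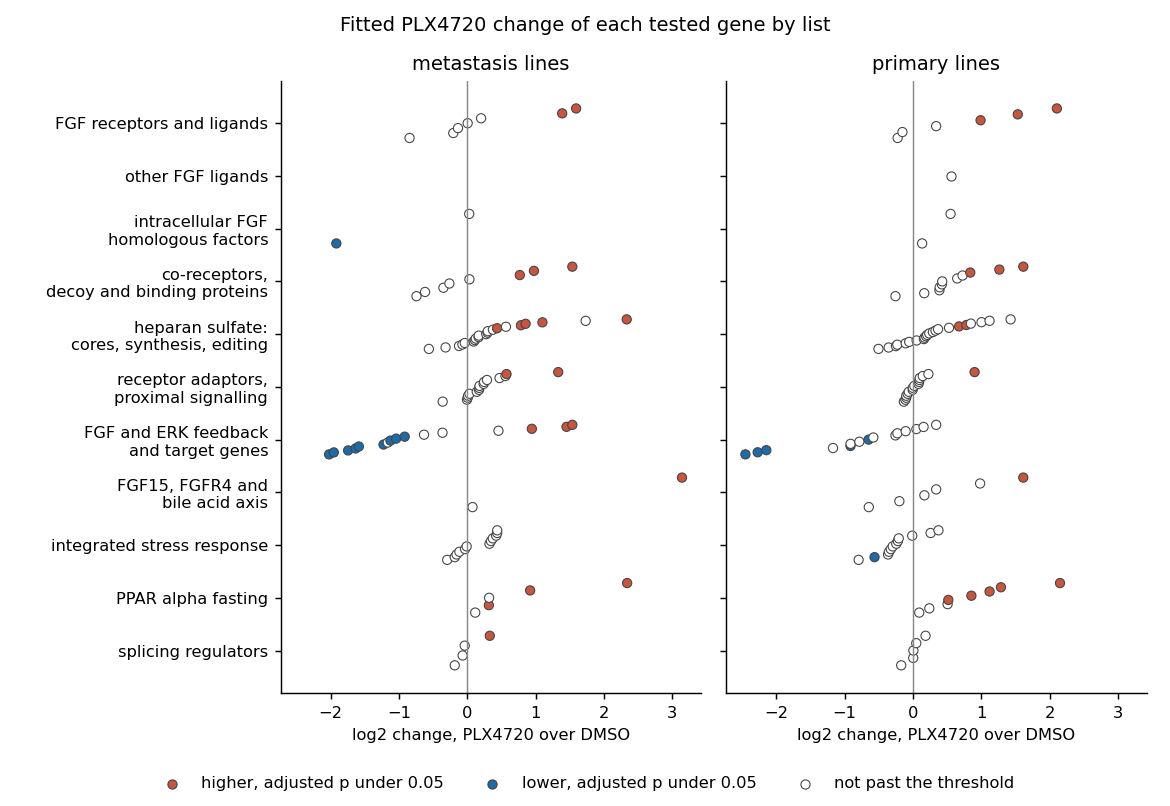
Fitted log2 change with PLX4720 against DMSO (horizontal axis) of each tested gene of the 11 lists (rows), in metastasis lines (left) and primary lines (right). Each point is a gene, red where higher and blue where lower at an adjusted p under 0.05 and white otherwise; genes under 20 fragments in both groups of a site are not drawn there. Among points past the threshold, those of the FGF receptor and heparan sulfate rows are all red and most of the feedback row are blue.

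The bile acid axis, in which FGF15 acts through FGFR4 to repress Cyp7a1, was incomplete in these lines. Cyp7a1, the rate-limiting enzyme of bile acid synthesis, had 0 fragments in all 12 libraries. Of 6 genes tested over all 6 lines 1 rose, where 14.5% of all genes did. It was the bile acid receptor gene Nr1h4 (1.66 ± 0.41, edgeR adjusted p = 0.018), with 219 fragments in metastasis lines with PLX4720 and 20 with DMSO, 168 of the 219 in M2. In primary lines Nr1h4 changed by 0.17 ± 0.43 (edgeR adjusted p = 0.84). Under DMSO 4 of 5 tested were lower in metastasis lines, where 7.49% of all genes were: Fgfr4, Nr1h4, Nr0b2 and Cyp27a1. Nr0b2, the repressor SHP, had 0 fragments in metastasis lines and 434 in primary lines. All 4 passed the filter through the primary lines alone.

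Genes that accompany induction of Fgf21 were counted because Fgf21 itself was too low to test. Of 8 tested genes of PPAR alpha and fasting, 6 rose over all 6 lines and none fell, where 14.5% of all genes rose and 12.7% fell. The median log2 change of this list was 0.64. Pdk4, which spares glucose, rose by 1.81 ± 0.12, Ppargc1a by 0.89 ± 0.15 and Cpt1a, the gate of mitochondrial fat oxidation, by 0.42 ± 0.07 (edgeR adjusted p = 7.7e-05, 0.0037 and 0.0046). Of 12 genes of the integrated stress response none rose and 2 fell over all 6 lines, where 14.5% of all genes rose and 12.7% fell. The 2 were the serine synthesis genes Phgdh (-0.37 ± 0.08) and Psat1 (-0.31 ± 0.10), with edgeR adjusted p of 0.0099 and 0.043. The list median was -0.14. Fgf21 itself held 11 fragments in metastasis lines with PLX4720 and 13 with DMSO, and 31 in primary lines with PLX4720 and 21 with DMSO.

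Genes whose levels ran most like each member over the 12 libraries were looked up among 11220 genes by Pearson correlation of log2(CPM + 1), as a description. The libraries share lines in pairs, and site dominates the levels. For Fgfr1 they were Ttc19, Micall2 and Tfpi (r between 0.977 and 0.981), for Fgfr3 Grhl3, Ptprj and Cdhr5 (r = 0.9903, 0.9900 and 0.9897), for Fgfr4 Smagp, Cdx2 and Fads6 (0.994 to 0.995) and for Fgf1 Mob3b, Cdhr5 and Faah (0.992 to 0.993). For Fgf7 they were Dnm3os, Ltbp2 and Fam198b (0.997 to 0.999), for Fgf10 Bcat2, Gng2 and Cacna1c (0.992 to 0.993) and for Fgf2 Gpr149, Sppl2b and Has1 (0.954 to 0.960). Fgfr2, the member that did not follow site, had the weakest matches, Loxl2, Tbc1d2b and Usp20 (0.908 to 0.938).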

How the data were processed

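RNA of 12 cell line libraries was sequenced with a stranded total RNA kit after ribosomal RNA removal, per the labels' protocols. The authors counted read pairs per gene with featureCounts 1.5.2 against Ensembl annotation 84 of GRCm38 without a strand option, per the file headers; no source used here names the aligner. What the authors deposited are unnormalised counts, in fragments. A fragment that overlaps exons of 2 genes is assigned to neither by default in that tool. Of 47729 Ensembl genes 47224 carry a symbol.

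Counts were fitted with edgeR 4.0.16 in R 4.3.3 (TMM factors, filterByExpr, quasi-likelihood F test, Benjamini-Hochberg adjustment over all genes tested, threshold 0.05). PLX4720 was tested in 1 fit of 12 libraries, blocked by cell line, in which each site had its own treatment effect; the 2 effects were averaged for the value over all 6 lines. Deviations of the 2 libraries of a line from their group means correlated at 0.859 to 0.934, and the line label is the source of the pairing. Sites were tested on the 6 libraries of a treatment, with no covariate. SE is the fitted log2 change divided by the square root of F. CPM use TMM-scaled library sizes, and TPM use the exon length in the tables. No fold is given where both groups of a site hold fewer than 20 fragments. No pair of libraries of a group agreed within sampling noise (smallest chi-square per degree of freedom 141.5). Depth limits precision for Fgf21 and for members near 0 at a site; intervals cover counting error only.

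The 11 gene lists, the list of members among them, were chosen with earlier results of these data known. Named were all members, up to 4 genes per other list with the smallest p past the threshold in PLX4720 against DMSO over all 6 lines and in metastasis against primary lines under DMSO, and 3 genes most alike to each tested member with a mean log2 CPM of at least 1. Fgf15, Klb and Fgfr4, and likewise Il17rd, stand on 2 lists. Alternatives were DESeq2 1.42.0, upper-quartile factors, no filter, other blocks, each site alone, M2 and M3 summed, CPM in place of TPM and leaving out each line. The tests were also run on simulated counts without differences between lines, which cannot check the site tests at the spread between these lines.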

Additional observations from a re-analysis of the deposited data

Results flagged for a closer look

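Fgfr3 was flagged because its PLX4720 change differed between sites by the test of the difference itself, at -2.31 on the log2 scale (metastasis minus primary, edgeR adjusted p = 0.0181). The call was lost without T1, T2 or M3 (edgeR adjusted p = 0.0509, 0.0593 and 0.0611). It was -0.21 ± 0.34 in metastasis lines, where each library held 7 to 14 fragments, and 2.11 ± 0.16 in primary lines. The ratio of PLX4720 to DMSO was 4.99, 4.53 and 3.51 in T1, T2 and T3. The low counts in metastasis lines and the markers that differ between sites stand beside this difference, and their part in it was not tested.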

How the results depend on the processing

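With 3 lines a group, several member calls changed when 1 line was left out, as given beside each. Fgfr2 and Fgfr3 over all 6 lines, Fgfr2 and Fgf7 in metastasis lines and Fgfr3 in primary lines kept their calls under every alternative run but the fit without the line block, and Fgfr3 and Fgf1 kept theirs between sites under every alternative run. Fgf7, Fgf10 and Fgfr4 passed the filter through 1 site alone, so their site calls say nothing of stability. The same limit holds under DMSO for Fgfr1, Fgfr3, Fgf1 and Fgf2, whose low site could not have passed the filter alone. Under PLX4720 it holds for Fgfr1, with 3 fragments in T1, and for Fgfr3, with 7 in M3. Over all members 366 recomputed values kept direction and side of the threshold, 27 fell below it, 7 rose past it and 19 changed sign, and in no sign change had the original value passed.

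Pairing by line carries the PLX4720 results. With no replicate block, the genes past the threshold were 15 in metastasis lines, 1 in primary lines, 18 over all 6 lines and 0 for the difference between sites by edgeR, and members past it were 0 in each; the difference for Fgfr2 was then -0.23. Replicate numbers do not pair the sites (correlations -0.103 to 0.0048); with a replicate block 1106 genes passed under DMSO and 1398 under PLX4720, and 6 members under each.

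Without the filter 2052 genes passed in primary lines and 996 for the difference, and DESeq2 gave 921 for the difference, 2974 for site under DMSO and 3163 under PLX4720. Each site fitted alone gave 2195 genes for metastasis lines and 2491 for primary lines, and M2 and M3 summed gave 1177 for site under DMSO. Fgfr1 in metastasis lines was -0.0061 with upper-quartile factors and -0.0048 without the filter. The cause of these shifts was not tested.

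Leaving out each line in turn gave 2417 to 4384 genes and 2 to 4 members over all 6 lines, 91 to 2252 genes and 1 to 3 members in primary lines, 1891 to 3090 genes and 2 to 3 members in metastasis lines, 122 to 798 genes and 0 to 2 members for the difference, 901 to 1595 genes and 5 to 6 members for site under DMSO, and 1097 to 1712 genes and 5 to 6 members under PLX4720. Fgfr1 then ranged from -0.27 to 0.024 over all 6 lines, -0.54 to 0.073 in primary lines, -0.28 to 0.16 in metastasis lines and -0.10 to 0.53 for the difference. Fgf2 ranged from -0.41 to 0.24 in primary lines, Fgf1 from -0.44 to 0.28 and Fgfr3 from -0.59 to 0.11 in metastasis lines. Fgfr2 ranged from -0.35 to 0.37 for the difference, -0.27 to 1.55 between sites under DMSO and -0.22 to 1.04 under PLX4720.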

Other observations

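Of the intracellular FGF homologous factors, which bind sodium channels and are not secreted, 3 were tested for PLX4720 and 1 fell, and 2 were tested between sites under DMSO and 1 was higher in metastasis lines. Of all genes 12.7% fell over all 6 lines and 4.64% were higher in metastasis lines under DMSO. Fgf13 fell in metastasis lines with PLX4720, with 65, 17 and 1 fragments in M1, M2 and M3, against 163, 98 and 7 with DMSO (log2 change -1.92 ± 0.32, edgeR adjusted p = 0.0037). In primary lines it held 102, 6 and 518 fragments in T1, T2 and T3 with PLX4720 and 72, 1 and 393 with DMSO (0.55 ± 0.28, edgeR adjusted p = 0.25), and the difference between sites was -2.47 ± 0.43 (edgeR adjusted p = 0.022). Fgf14 held 133 fragments in metastasis lines with DMSO and 0 in primary lines with DMSO, and it passed the filter on low counts through the metastasis lines alone.

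Gene counts do not show which splice form of an FGF receptor is made, so the genes of proteins known to act on that choice were counted. Esrp2, which favours the epithelial form of FGFR2, had 14 fragments in metastasis lines with PLX4720 and 15 with DMSO, against 4892 and 4979 in primary lines with PLX4720 and with DMSO. The log2 difference under DMSO was -8.18 ± 0.48 (edgeR adjusted p = 0.00092). Esrp2 passed the filter on low counts through the primary lines alone. Its paralogue Esrp1 had 0 fragments in all metastasis libraries and was found mainly in T3, with 110 fragments under PLX4720 and 88 under DMSO. Ptbp2 and Rbfox2, splicing regulators of neural and mesenchymal cells, were higher in metastasis lines under DMSO by 1.68 ± 0.30 and 1.04 ± 0.21 (edgeR adjusted p = 0.016 and 0.023). Of the 5 tested, 2 were higher and 1 lower in metastasis lines under DMSO, where 4.64% of all genes were higher and 7.49% lower. None of the 5 passed for PLX4720 over all 6 lines by edgeR, where 27.2% of all genes did. In metastasis lines 1 did, Rbfox2 at 0.33 ± 0.09 (edgeR adjusted p = 0.034), where 20.4% of all genes did.

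Gdf15, a stress hormone on the list that goes with Fgf21, had 31 fragments in metastasis lines with PLX4720 and 24 with DMSO, against 3963 and 3764 in primary lines with PLX4720 and with DMSO (under DMSO, edgeR adjusted p = 0.033). Most primary fragments were in T2. Gdf15 held 837, 2967 and 159 in T1, T2 and T3 with PLX4720 and 502, 3110 and 152 with DMSO. It passed the filter on low counts through the primary lines, as M1, M2 and M3 held 4, 1 and 19 fragments with DMSO.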
